A study of Arabidopsis thaliana with 12 samples.

Results

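The PIP1 and TIP aquaporins described here are 10 genes of Arabidopsis thaliana, taken by locus from the deposited tables out of 32833 loci listed for each accession. The PIP1 genes are PIP1;1 (AT3G61430), PIP1;2 (AT2G45960), PIP1;3 (AT1G01620), PIP1;4 (AT4G00430) and PIP1;5 (AT4G23400). The TIP genes are TIP1;1 (AT2G36830), TIP1;2 (AT3G26520), TIP2;1 (AT3G16240), TIP2;2 (AT4G17340) and TIP2;3 (AT5G47450). All 10 had an adjusted p in both accessions, so none was lost to the authors' filter on low counts. The RNA came from whole seedlings of the natural accessions Kn-0 and Col-0, 4 days old and raised on filter paper in continuous light. Seedlings were then kept for 3 h on medium with 5 µM abscisic acid (ABA), or on control medium (mock). There were 3 libraries in each of 4 groups, namely Kn-0 ABA, Kn-0 mock, Col-0 ABA and Col-0 mock. The labels give no mutation or transgene for any group.

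Aquaporins are channels that let water, and in some cases other small neutral molecules, cross a membrane. PIP proteins sit mainly in the plasma membrane, and PIP1 proteins generally need a PIP2 partner to reach it. TIP proteins sit in the tonoplast, the membrane around the vacuole, and are abundant in expanded cells. ABA is the hormone of water deficit. It closes stomata and slows the growth of young seedlings, and aquaporin genes are among those known to answer to it.

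The 250 bases before the annotated start of each gene were searched on both strands for ACGTG, the core of the ABA response element, and for CCGAC, the core of the dehydration response element. ACGTG stood before 1 of 10 members, AT2G36830, and before 22.9% of 27444 protein-coding genes. CCGAC stood before 3 of 10 members (AT1G01620, AT2G36830 and AT3G26520) and before 12% of the same genes. In AT2G36830 the cores lie 62 and 51 bases before the start and do not overlap. Its window is shown because it holds both cores, and that of AT5G47450 because this gene had the highest fold change of the 10 and its window has neither. Both are RefSeq sequence of TAIR10.1, read 5′ to 3′ in the gene's direction, from chr2:15445044-15445293 (plus strand) and chr5:19249623-19249872 (minus strand). Capitals mark the cores, both of which lie on the opposite strand.
AT2G36830: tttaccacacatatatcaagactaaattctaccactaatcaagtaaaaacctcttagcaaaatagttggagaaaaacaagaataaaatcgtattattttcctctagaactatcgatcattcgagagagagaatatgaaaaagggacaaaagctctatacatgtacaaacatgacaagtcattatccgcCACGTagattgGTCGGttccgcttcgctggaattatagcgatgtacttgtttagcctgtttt
AT5G47450: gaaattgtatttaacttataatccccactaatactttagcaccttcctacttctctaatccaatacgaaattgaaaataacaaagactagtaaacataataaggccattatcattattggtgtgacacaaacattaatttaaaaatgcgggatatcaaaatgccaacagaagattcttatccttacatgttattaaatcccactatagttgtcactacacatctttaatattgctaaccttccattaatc

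Only the splicing tables hold values of single libraries, as junction reads for inclusion and for skipping in each splicing event. With 1 event per gene, the libraries held from 14202821 to 15506454 such reads. Values are given as RPM, reads scaled to the same total of junction reads in each library after TMM factors, which correct the totals for differences in composition. Markers of root, green shoot and guard cells were all above 0. Their changes are counted by the authors' adjusted p under 0.05. By that measure 22.9% of all tested genes rose and 21.5% fell in Kn-0, and 19.8% rose and 18.4% fell in Col-0. Of 9 root markers, 1 rose and 4 fell in Kn-0, and 1 rose and 5 fell in Col-0. Of 5 green shoot markers, 2 rose in Kn-0 and 1 in Col-0. Of 4 guard cell markers, 2 fell in Kn-0 and 1 in Col-0. Of 3 seed markers, OLEO1 rose in each accession. Their part in the results was not tested, and in whole seedlings fewer cells of a type and less RNA per cell cannot be told apart.

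The members were abundant and covered a wide range of levels. The authors' deposited tables give 1 mean normalized count per accession, over ABA and mock together. Per kilobase of the longest transcript, TIP1;2 was highest, with 95680 in Kn-0 (rank 45 of 26532 loci) and 72585 in Col-0 (rank 55 of 27444). TIP2;1, also called delta-TIP, came next with 64738 in Kn-0 and 52757 in Col-0. PIP1;2 led the PIP1 genes with 59553 in Kn-0 and 48130 in Col-0, followed among all 10 by TIP1;1 with 29762 in Kn-0 and 33147 in Col-0. AT5G47450 was lowest of the 10, with 1934 per kilobase in Kn-0 (rank 4023) and 1498 in Col-0 (rank 5076). The deposited means carry no spread over libraries, so neighbours in this order were not tested. The members made up 0.567% of all normalized counts in Kn-0 and 0.472% in Col-0. They made up 67.6% of the counts of all 35 aquaporin genes in Kn-0 and 66.0% in Col-0. No stretch of 100 bases in any member's mRNAs occurred in another gene's mRNA annotated on the numbered chromosomes of TAIR10.1. Yet coding sequences were 79.8% to 87.6% identical among the PIP1 genes. Non-coding transcripts and Kn-0 sequence were not searched.

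ABA raised most of these mRNAs modestly in both accessions. By the authors' adjusted p under 0.05, 7 of 10 members rose, 1 fell and 2 did not pass in Kn-0. The background there was 22.9% of 23710 tested genes higher and 21.5% lower. In Col-0 the counts were also 7 higher, 1 lower and 2 not passing, against a background of 19.8% of 23687 genes higher and 18.4% lower. Here and below, the background covers all tested genes and was not matched to the members' high abundance. The members' median log2 fold change was 0.33 in Kn-0 and 0.32 in Col-0, while over all tested genes the median was 0.00 in each accession.

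**Figure D1:**
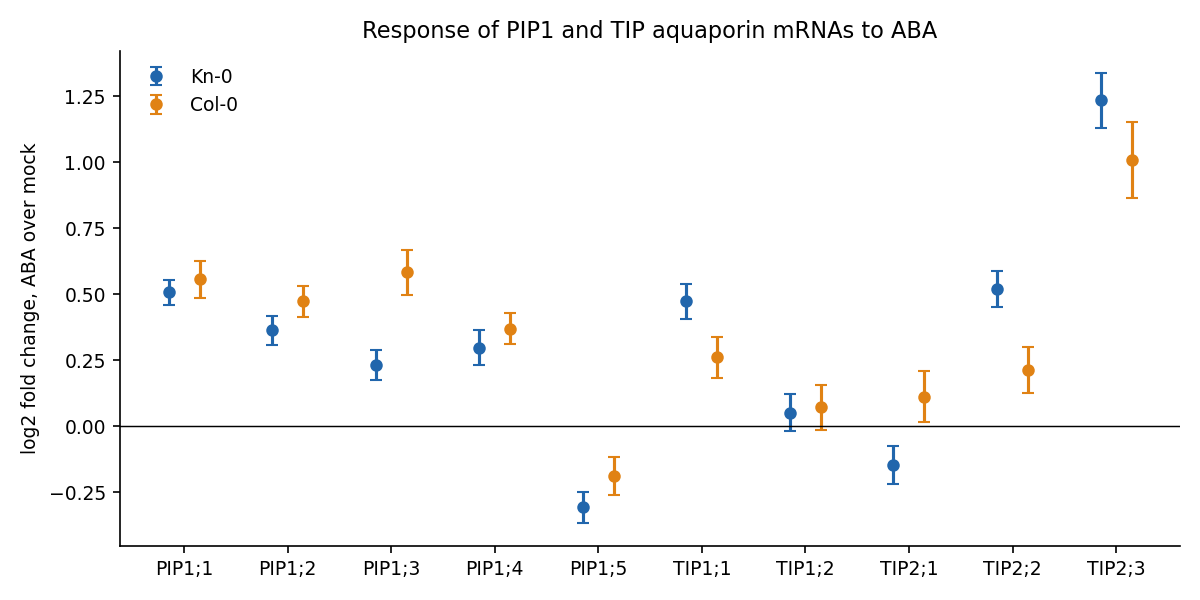
Log2 fold change of ABA over mock for each member (y axis), with the standard error, from the authors' deposited tables of Kn-0 (blue) and Col-0 (orange). The fifth PIP1 gene lies below 0 in both accessions, TIP2;3 is highest in both, and the accessions are farthest apart at PIP1;3, with 0.23 in Kn-0 and 0.58 in Col-0.

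Junction reads gave library values for 6 members in Kn-0 and 8 in Col-0, each from the event with most reads in that accession. By limma with TMM factors, 4 of 6 rose and 1 fell in Kn-0, where 18.8% of 13716 genes were higher and 17.4% lower. In Col-0 5 of 8 rose and 1 fell, where 15.7% of 13798 genes were higher and 13.5% lower. The ABA and mock libraries did not overlap for the same number of members, 4 higher and 1 lower in Kn-0, and 5 higher and 1 lower in Col-0. Over all genes tested there was no overlap in 24.1% higher and 23.1% lower in Kn-0, and in 21.8% higher and 20.2% lower in Col-0. The junction can differ between the accessions, so these RPM are compared within an accession only.

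Among the PIP1 genes, 4 of 5 rose in each accession and 1 fell. PIP1;1 is a broadly expressed plasma membrane aquaporin. It had 919.6, 924 and 875 RPM in the Kn-0 ABA libraries, against 685, 638 and 625 RPM in the Kn-0 mock libraries. In Col-0 it had 420.4, 447 and 451 RPM with ABA, against 280.1, 301 and 323 RPM in mock. All ABA libraries lay above all mock libraries of their accession. The deposited log2 fold change (± standard error) was 0.51 ± 0.047 in Kn-0, with a DESeq2 adjusted p of 7.21e-26. In Col-0 it was 0.56 ± 0.070, with a DESeq2 adjusted p of 2e-14. These and the other fold changes given as deposited are from the authors' deposited tables.

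PIP1;2, the PIP1 gene with most reads, contributes to water transport in root and rosette. It had 1729, 1667 and 1491 RPM in the Kn-0 ABA libraries, against 1373, 1242 and 1255 RPM in the Kn-0 mock libraries. In Col-0 it had 1441, 1419.7 and 1378 RPM with ABA, against 1006, 1011 and 1069.7 RPM in mock. The groups were again apart in both accessions, with the wider gap between nearest libraries in Col-0. Its deposited log2 change was 0.36 ± 0.055 in Kn-0 (DESeq2 adjusted p 3.17e-10) and 0.47 ± 0.059 in Col-0 (DESeq2 adjusted p 1.35e-14).

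PIP1;3 moved the same way but by unequal amounts. It had 567, 529 and 499 RPM in the Kn-0 ABA libraries, against 470.5, 453 and 437 RPM in the Kn-0 mock libraries. In Col-0 it had 848, 784 and 773 RPM with ABA, against 491, 502 and 627 RPM in mock. No groups overlapped, and mock library 3 stood highest of its group in Col-0. The Kn-0 event was a retained intron, read almost only as retained, with 8180 inclusion and 2 skipping reads in ABA library 1. The Col-0 event was an alternative acceptor. In the authors' deposited tables its log2 fold change was 0.23 ± 0.057 in Kn-0 (DESeq2 adjusted p 0.00018) and 0.58 ± 0.084 in Col-0 (DESeq2 adjusted p 4.76e-11).

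PIP1;4 is a gene whose mRNA is known to rise in Arabidopsis under drought. It had 306, 299 and 296 RPM in the Kn-0 ABA libraries, against 272, 250.5 and 231 RPM in the Kn-0 mock libraries. In Col-0 it had 317, 294 and 302 RPM with ABA, against 239.6, 234 and 236 RPM in mock. The mock libraries lay below the ABA libraries in both accessions and were more spread in Kn-0. ABA over mock, the deposited log2 fold change was 0.30 ± 0.066 in Kn-0 (DESeq2 adjusted p 3.06e-05) and 0.37 ± 0.060 in Col-0 (DESeq2 adjusted p 4.9e-09).

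PIP1;5 was the PIP1 gene that fell. It had 296, 279 and 242 RPM in the Kn-0 ABA libraries, against 349.9, 330.1 and 325 RPM in the Kn-0 mock libraries. In Col-0 it had 141, 153 and 132 RPM with ABA, against 159, 169 and 172 RPM in mock. Every ABA library lay below every mock library of its accession, with little room between the groups in Col-0. On the log2 scale its deposited fold change was -0.31 ± 0.060 in Kn-0 (DESeq2 adjusted p 1.72e-06) and -0.19 ± 0.073 in Col-0 (DESeq2 adjusted p 0.0276). The Col-0 call did not hold at an adjusted p of 0.01. In junction reads of the Col-0 event (-0.23, limma adjusted p 0.0265) it was lost without ABA library 1, ABA library 3 or mock library 2, with adjusted p from 0.0583 to 0.093.

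**Figure D2:**
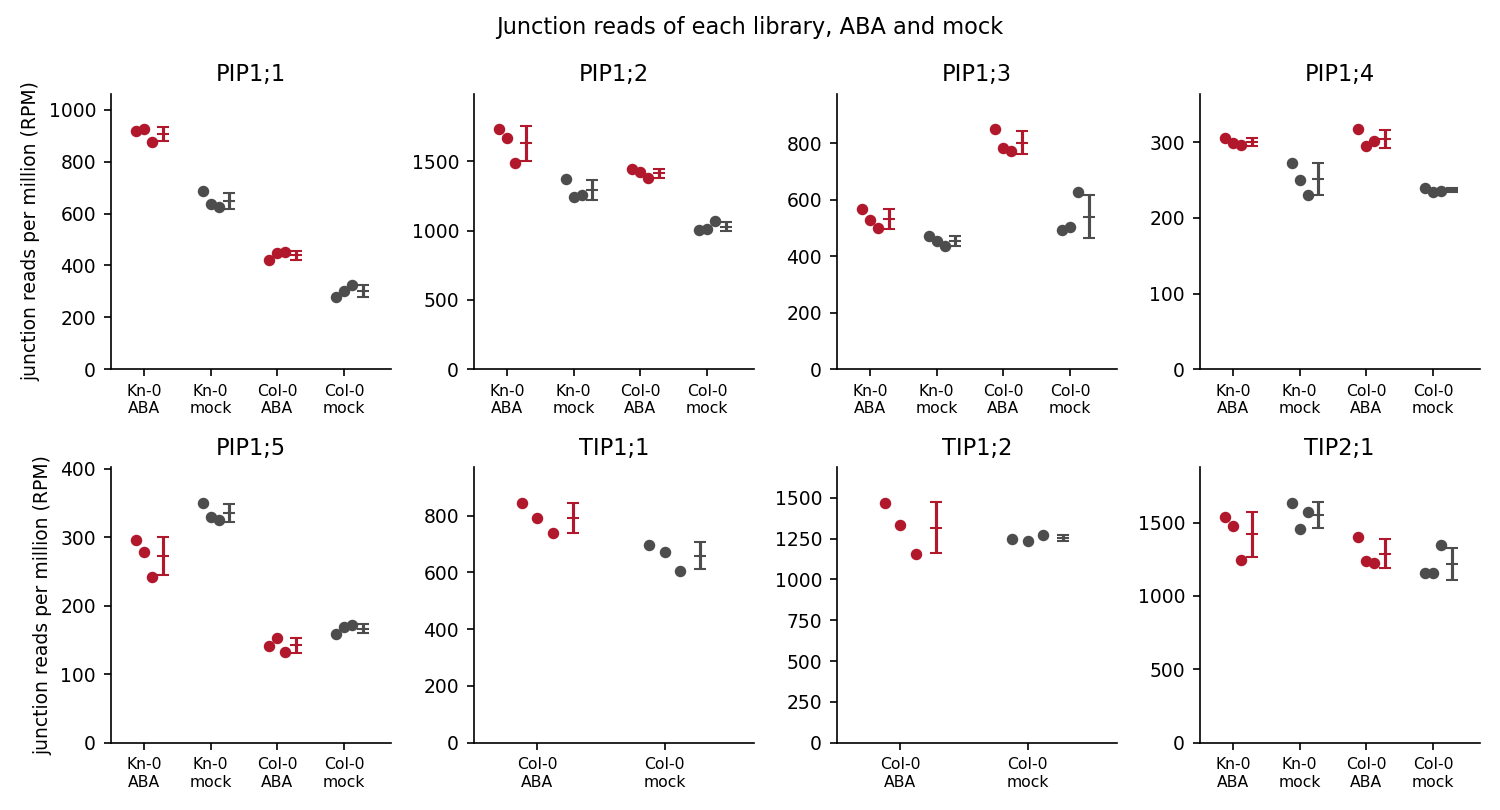
Junction reads per library (RPM, y axis, starting at 0) for the 8 members with a splicing event, ABA in red and mock in grey, with the mean and SD beside the points. The ABA and mock points overlap for TIP1;2 and TIP2;1 and are apart for the others, and the junction can differ between accessions.

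Among the TIP genes, 3 of 5 rose in each accession and the other two did not pass. TIP1;1, a widespread vacuolar aquaporin, had 845, 793 and 738 RPM in the Col-0 ABA libraries, against 697, 672 and 606 RPM in the Col-0 mock libraries. These groups did not overlap. The limma call on these reads was lost without ABA library 1 (0.22, adjusted p 0.0505) and without mock library 3 (0.19, adjusted p 0.0503). Its deposited log2 fold change was 0.47 ± 0.066 in Kn-0 (DESeq2 adjusted p 6.94e-12) and 0.26 ± 0.077 in Col-0 (DESeq2 adjusted p 0.00257).

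TIP1;2, whose coding sequence is 81.5% identical to that of AT2G36830, had 1468, 1331 and 1153 RPM in the Col-0 ABA libraries. The Col-0 mock libraries had 1249.7, 1234 and 1272 RPM, inside the range of the ABA libraries. The deposited log2 fold change was 0.05 ± 0.070 in Kn-0 (DESeq2 adjusted p 0.609) and 0.07 ± 0.086 in Col-0 (DESeq2 adjusted p 0.568).

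TIP2;1 had 1539.5, 1475 and 1248 RPM in the Kn-0 ABA libraries, against 1634, 1459 and 1569.7 RPM in the Kn-0 mock libraries. In Col-0 it had 1400.1, 1239 and 1225 RPM with ABA, against 1158, 1156 and 1344 RPM in mock. The groups overlapped in both accessions. The Kn-0 difference of -0.13 (limma adjusted p 0.17) was called without ABA library 1, at -0.19 with an adjusted p of 0.0397. Of 6 fits that each left out 1 library, the other 5 gave no call. Over the 6 fits the difference ran from -0.192 to -0.042, with a limma adjusted p up to 0.661. The deposited log2 fold change was -0.15 ± 0.073 in Kn-0 (DESeq2 adjusted p 0.0918) and 0.11 ± 0.097 in Col-0 (DESeq2 adjusted p 0.397).

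TIP2;2 and TIP2;3 have no event in the splicing tables, so their libraries are not shown one by one. They are a close pair, with coding sequences 81.5% identical, and the protein of AT5G47450 is known to conduct ammonia besides water. AT5G47450 had the highest fold change of the 10 in both accessions. Its deposited log2 fold change was 1.24 ± 0.103 in Kn-0 (DESeq2 adjusted p 8.78e-32) and 1.01 ± 0.145 in Col-0 (DESeq2 adjusted p 3.62e-11). The value of AT4G17340 was 0.52 ± 0.070 in Kn-0 (DESeq2 adjusted p 1.44e-12). In Col-0 it was 0.21 ± 0.087 (DESeq2 adjusted p 0.039), a call that did not hold at 0.01.

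Whether the accessions differ in this response was tested on the difference of the deposited log2 fold changes, Kn-0 minus Col-0, by a two-sided Wald test adjusted over 22001 genes. Of 10 members 1 passed, beside 3.45% of all genes tested. This was PIP1;3, which rose less in Kn-0. Its difference was -0.35 ± 0.101, with a 95% interval from -0.55 to -0.15 and an adjusted p of 0.0198. The call did not hold at an adjusted p of 0.01. It was also lost when the Kn-0 values were divided by 0.801, their slope on the Col-0 values over genes called in both (-0.29, adjusted p 0.137). In junction reads the difference was -0.34 ± 0.110, with a limma adjusted p of 0.26, in a fit where 0.726% of 12809 genes passed. It sets a retained intron event in Kn-0 beside an alternative acceptor event in Col-0. The difference passed in that fit without Col-0 mock library 3, at -0.45 with a limma adjusted p of 0.00937. Of 12 fits that each left out 1 library, the other 11 gave no call, with an adjusted p up to 0.552.

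The next largest differences were those of AT4G17340, at 0.31 ± 0.112 (Wald adjusted p 0.128), and AT3G16240, at -0.26 ± 0.121 (Wald adjusted p 0.38). Their 95% intervals ran from 0.09 to 0.53 and from -0.50 to -0.02. With the Kn-0 values divided by the slope, AT4G17340 passed, at 0.44 with an adjusted p of 0.0182. AT3G26520 had the smallest difference, -0.02 ± 0.110, with an interval from -0.24 to 0.20.

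Levels in mock seedlings could be compared between accessions for the 3 members with an event of the same shape in both splicing tables. RPM of these events are scaled to the total over such events alone and are not comparable with the RPM of each accession's own event. PIP1;5 had 549, 530.4 and 520.3 RPM in the Kn-0 mock libraries, against 255, 268 and 264 RPM in the Col-0 mock libraries. PIP1;1 had 853, 800.0 and 778 RPM in Kn-0 mock, against 525, 565 and 599 RPM in Col-0 mock. PIP1;2 had 2473, 2239.9 and 2286 RPM in Kn-0 mock, against 1876, 1888 and 1972 RPM in Col-0 mock. The Kn-0 libraries lay above the Col-0 libraries without overlap for all 3 genes, as they did for 20.2% of the 8736 genes tested, while 20% lay below without overlap.

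Scaled to the plain total, the log2 difference in mock, Kn-0 minus Col-0, was 1.08 ± 0.061 for AT4G23400 (limma adjusted p 1.45e-11). It was 0.59 ± 0.059 for AT3G61430 (limma adjusted p 1.44e-07) and 0.35 ± 0.060 for AT2G45960 (limma adjusted p 0.000166). The background on that scaling was 17.8% of 8736 genes higher and 9.35% lower in Kn-0, with a median difference of 0.07 over all genes. With TMM factors it was 12.6% higher and 13.0% lower, with a median of 0.01, so the excess of higher genes was not seen there. The members' differences with TMM factors were 1.02, 0.53 and 0.29 in the same order, and each still passed. The Kn-0 table uses other coordinates than the Col-0 table, and the part of read placement in these differences was not tested.

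**Figure D3:**
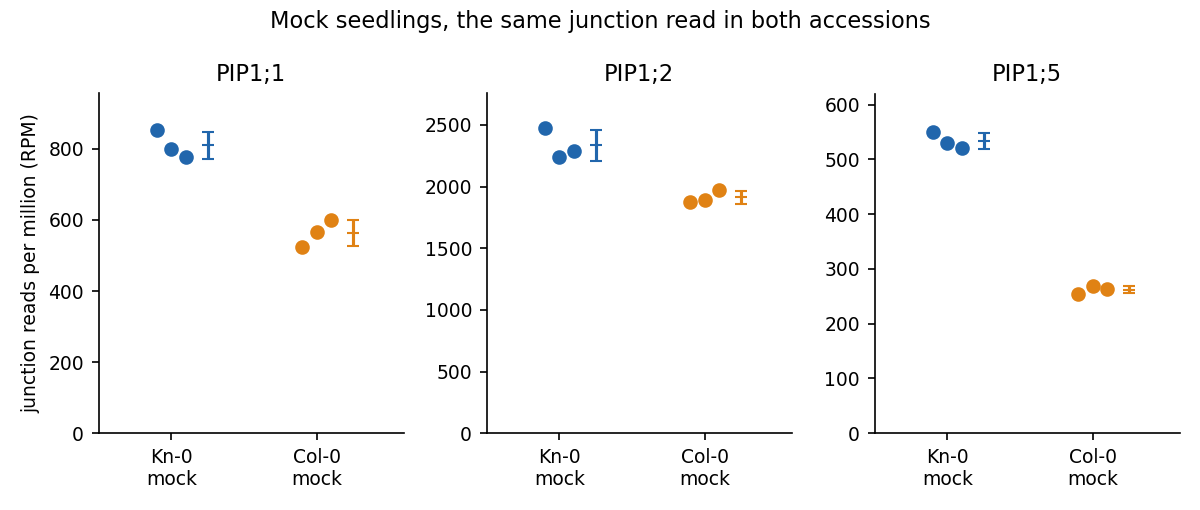
Junction reads (RPM, y axis, starting at 0) of each mock library of Kn-0 (blue) and Col-0 (orange) for an event of the same shape in both, with the mean and SD beside the points. The Kn-0 libraries lie above the Col-0 libraries in all 3 panels, and the panel on the right differs most.

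No splicing event of the members was called. The tables list 67 events of members in Kn-0 and 58 in Col-0, of which 55 and 45 reached on average 10 junction reads a library. None of those listed had an rMATS FDR under 0.05 together with a change in inclusion of 0.1 or more. The background was 0.114% of 168795 events in Kn-0 and 0.162% of 163939 in Col-0. Of all events listed for members, 2 in Kn-0 and 0 in Col-0 had an unadjusted rMATS p under 0.05. The first, a retained intron of PIP1;1, had an inclusion difference of -0.071 (ABA minus mock, on a scale of 0 to 1), at 53.2 reads a library and an FDR of 0.328. The second, an alternative donor of AT2G45960, had a difference of -0.196 at an FDR of 0.361, but only 4.0 reads a library, under the minimum of 10. Few events of members varied enough for limma on logits, 3 in Kn-0 and 2 in Col-0. Of these 0 were called, and 0 had an unadjusted p under 0.05.

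The introns of AT2G45960 and AT4G23400 and the acceptor of the second gene follow in TAIR10 coordinates, since their usage was compared library by library in both accessions. Capitals mark the first and last 2 bases of an intron, or the AG before each of 2 alternative exon starts. The PIP1;2 intron is at chr2:18911520-18911607 (plus strand) and is an intron in 1 of 3 annotated transcripts. Intron 2 of PIP1;5 is at chr4:12221692-12221785 (plus strand). The acceptor of the same gene, at the end of intron 1, is at chr4:12221373-12221407 (plus strand). All lie within the coding part of the gene.
AT2G45960 intron: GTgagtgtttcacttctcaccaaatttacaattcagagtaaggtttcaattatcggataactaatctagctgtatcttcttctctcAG
AT4G23400 intron: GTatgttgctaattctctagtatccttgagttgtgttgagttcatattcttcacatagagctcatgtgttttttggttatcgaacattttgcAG
AT4G23400 acceptor: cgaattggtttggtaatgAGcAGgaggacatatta

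Retention of the AT2G45960 intron was 1.71%, 1.92% and 1.80% in the Kn-0 ABA libraries, against 1.59%, 1.77% and 2.14% in the Kn-0 mock libraries. In Col-0 it was 1.24%, 1.34% and 1.37% with ABA, against 1.38%, 1.52% and 1.49% in mock. The groups overlapped in Kn-0 and not in Col-0. The Kn-0 mock libraries also lay above the Col-0 mock libraries, by 0.37 percentage points on average. Both comparisons without overlap had an exact two-sided permutation p of 0.1, the lowest that 3 against 3 libraries allow.

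Retention of the AT4G23400 intron was 0.395%, 0.56% and 0.433% in the Kn-0 ABA libraries, against 0.517%, 0.395% and 0.42% in the Kn-0 mock libraries, with overlap. In Col-0 it was 0.235%, 0.239% and 0.288% with ABA, against 0.379%, 0.475% and 0.507% in mock, without overlap. The exact two-sided permutation p was 0.1 and its adjusted p 0.333, so no difference is read here either. From 7 to 9 retained reads stood behind each Col-0 ABA value, and from 14 to 20 behind each Col-0 mock value.

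The upstream AG of the AT4G23400 acceptor, which adds 3 bases in Col-0, was used there at 1.31% ± 0.20 with ABA and 1.28% ± 0.042 in mock (SD, n = 3 each). An acceptor event of this gene in Kn-0, not of the same shape, had 1.41% ± 0.082 with ABA and 1.38% ± 0.17 in mock (SD, n = 3 each). Retention of intron 2 of PIP1;4 in Col-0 was 1.96% ± 0.14 with ABA and 1.83% ± 0.074 in mock (SD, n = 3 each). A retained intron event of PIP1;4 in Kn-0, again not of the same shape, had 2.2% ± 0.25 with ABA and 2.04% ± 0.085 in mock (SD, n = 3 each). Whether these Kn-0 events lie at the Col-0 sites was not tested, so their values are compared within an accession only. Over the 10 comparisons of introns and acceptor, the lowest adjusted p of the exact permutation tests was 0.333.

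**Figure D4:**
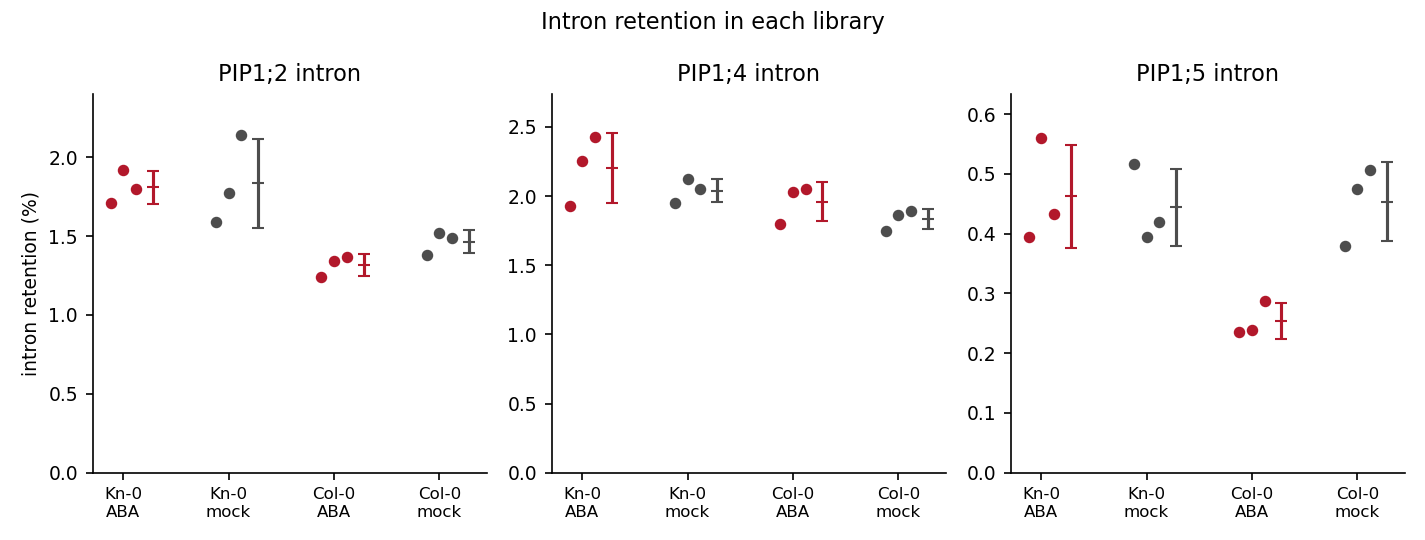
Retention of 1 intron in each of 3 PIP1 genes (percent, y axis, starting at 0) in each library, ABA in red and mock in grey, with the mean and SD beside the points. For PIP1;4 the events of the accessions were not of the same shape and can be different introns. The highest value is 2.43%, and in the panel on the right the Col-0 ABA libraries lie below all others.

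The other aquaporins were read beside the members, by the authors' adjusted p under 0.05. By that measure 22.9% of all tested genes were higher and 21.5% lower in Kn-0, and 19.8% higher and 18.4% lower in Col-0. These shares are the background for this list and the lists that follow. A count near them is not read as a response of the list. Of the 8 PIP2 genes, partners of PIP1 proteins in the plasma membrane, 4 rose, 1 fell and 3 did not pass in each accession. PIP2;1 had the highest called log2 fold change in both deposited tables, 0.71 ± 0.050 in Kn-0 and 0.92 ± 0.053 in Col-0. The lowest called were PIP2;8 in Kn-0, at -0.27 ± 0.066, and PIP2;4 in Col-0, at -0.46 ± 0.111. Among the 5 other TIP genes, 3 of 4 tested rose in Kn-0 and 2 of 3 in Col-0. TIP3;1, an aquaporin of seeds, was highest there, at 2.22 ± 0.614 in Kn-0 and 3.95 ± 0.583 in Col-0. The lowest called were TIP4;1 in Kn-0, at 0.26 ± 0.054, and TIP3;2 in Col-0, at 3.39 ± 0.252.

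NIP and SIP genes are the more distant branches of the family. Of 11 tested, 2 rose, 3 fell and 6 did not pass in Kn-0, and 1 rose, 4 fell and 6 did not pass in Col-0. NIP3;1 had the lowest called log2 fold change in both deposited tables, at -0.75 ± 0.199 in Kn-0 and -1.47 ± 0.254 in Col-0. The highest called were NIP4;2 in Kn-0, at 0.78 ± 0.197, and SIP1;1 in Col-0, at 0.22 ± 0.070.

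Proton pumps share the plasma membrane and the tonoplast with these channels. Of 7 pump genes, 4 rose, 1 fell and 2 did not pass in Kn-0, and 2 rose, 1 fell and 4 did not pass in Col-0. AHA2, a plasma membrane pump of root, fell in both, with a log2 fold change of -0.74 ± 0.044 in Kn-0 and -1.03 ± 0.076 in Col-0. VHA-a2, a tonoplast pump subunit, had the highest called value, 0.39 ± 0.043 in Kn-0 and 0.43 ± 0.062 in Col-0.

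Of 7 genes for the traffic and turnover of PIP proteins, 2 rose, 1 fell and 4 did not pass in each accession. TSPO, a membrane protein that takes a PIP2 protein to degradation, had the highest fold change, with a log2 value of 6.65 ± 0.098 in Kn-0 and 5.46 ± 0.124 in Col-0 in the authors' deposited table. The lowest called were the ubiquitin ligase genes RMA1 in Kn-0, at -0.25 ± 0.076, and RMA2 in Col-0, at -0.31 ± 0.109.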

How the data were processed

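Polyadenylated RNA of whole seedlings gave 12 libraries, grouped as the labels state. No label says that replicates are separate cultures, so p-values measure the spread between these libraries. STAR, featureCounts, DESeq2 and the build TAIR10 are named in the submitters' processing notes. The deposited gene tables give, per the file headers, the authors' mean of normalized counts (a signal, averaged over 6 libraries) and their log2 fold changes with standard errors. They also hold the authors' Wald statistic (a score) and p-values. The deposited splicing tables hold the authors' junction reads (a signal) for 4 event types, with the inclusion difference (a score) and p-values. Read lists that had lost their commas were split to match the inclusion levels, which gave reads for 99.93% of events in Kn-0 and 99.95% in Col-0. The first sample set of each list was taken as mock from the label's order. Fold changes from junction reads correlated with those of the gene tables at 0.964 in Kn-0 and 0.965 in Col-0, across genes, which are not independent replicates. In the Kn-0 gene table each heading stands 1 place off its values, which was corrected on reading, and the Kn-0 splicing coordinates are not those of TAIR10. Events were therefore matched by shape, where the plan was to match coordinates, which gave 55202 events in 8919 genes.

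Junction reads of 1 event per gene with a mean of at least 10 reads were tested with limma 3.58.1 in R 4.3.3, on log2 reads per library total with a prior count of 0.5. The plain total was the planned scaling. On simulated data for Col-0 ABA against mock, over 8735 genes, it shifted unchanged genes by -0.061 and 14.1% of calls were false. With TMM factors, added after that, 3.11% were false. The simulation changed 50 genes at each log2 value of 0.5, 1, 2 and -1, so more rose than fell. In the measured Col-0 reads of the shared event, the median difference on the plain total was -0.008. The simulated rates therefore need not hold for these data. The RPM values and the fits of each accession's own event use TMM factors, while mock levels of the shared event were tested with the plain total. Counting error limits the precision of low retention levels. The members, the gene lists and the rule for named genes (all members, and per list the highest and lowest called fold change) were chosen with earlier results of these data known. The introns, their exact tests and the promoter windows were chosen after their values were seen. Alternatives were other thresholds, filters and scalings, and leaving out each library.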

Additional observations from a re-analysis of the deposited data

Results flagged for a closer look

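PIP1;3 was the member whose ABA response differed between the accessions by the test of the difference itself, with a log2 difference of -0.35 for Kn-0 minus Col-0. The deposited log2 fold changes were 0.23 ± 0.057 in Kn-0 and 0.58 ± 0.084 in Col-0. In mock library 3 of Col-0 this gene had 627 RPM, against 491 and 502 RPM in the other Col-0 mock libraries. With all libraries the difference in junction reads did not pass. It passed without that library, at -0.45 with a limma adjusted p of 0.00937. Of 12 fits that each left out 1 library, 11 gave no call, with an adjusted p up to 0.552. Without that library 91 genes passed as higher and 79 as lower of 12810, against 53 and 40 of 12809 with all libraries. The Wald call did not hold at an adjusted p of 0.01, or with Kn-0 divided by the slope. Beyond leaving out each library, no test for outlying values was run in groups of 3.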

How the results depend on the processing

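The count of members called moved in these cases. Junction reads of the shared event cover 3 members, of which 2 were higher in Kn-0 and 2 in Col-0. PIP1;5 was lower in both, with a limma adjusted p of 6.6e-05 in Kn-0 and 0.025 in Col-0. Of 8736 genes in that fit, 1221 were higher and 1480 lower in Kn-0, and 1414 higher and 1354 lower in Col-0. Each accession's own event covers 6 members in Kn-0, of which 4 were higher. At an adjusted p under 0.01, 0 members were lower in Col-0. The count of members whose response differs between accessions was 0 at that threshold, 0 by the shared event and 0 by the own event. It was 1 with Kn-0 divided by the slope, where TIP2;2 passed and PIP1;3 did not. Leaving out single libraries gave from 0 to 1 by the own event. It gave from 5 to 6 called members in Kn-0 and from 4 to 6 in Col-0.

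Signs turned for values near 0. With Kn-0 divided by the slope, the differences of PIP1;1 and PIP1;4 were 0.077 and 0.001. Leaving out single libraries, the PIP1;1 difference by the shared event ran from -0.088 to 0.017, and the PIP1;5 difference by the own event from -0.124 to 0.022. TIP1;2 in Col-0 ran from -0.015 to 0.16. PIP1;5 in Col-0 lost its call by the shared event without ABA library 1 or 3, or mock library 2 or 3 (from -0.172 to -0.153). TIP2;1 in Kn-0, not called by its own event (-0.13, limma adjusted p 0.17), was called with the plain total (-0.19, limma adjusted p 0.0405). The causes were not tested. The mock levels of the 3 genes kept direction and call under every alternative run. No paired analysis was possible because the deposited lists carry no replicate numbers, and a library is named by its place in the list. For inclusion in mock seedlings no event of members qualified, so those alternatives gave no value.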
